A study of Mus musculus with 9 samples.

Results

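The genes described are 10 that encode inflammatory cytokines and a cytokine antagonist (Tnf, Il1a, Il1b, Il1rn, Il18 and Tgfb1), a pair of enzymes of prostaglandin synthesis (Ptgs2 and Ptges), and a sensor and a protease of the inflammasome (Nlrp3 and Casp1). They were taken by symbol from a table of read counts for 54532 mouse genes. All 10 were in the table, and 9 had enough reads to be tested; Il1a did not. The counts came from 9 RNA sequencing libraries of osteoclasts (multinucleated bone-resorbing cells) differentiated from mouse bone marrow precursors with M-CSF (20 ng/ml) and RANKL (10 ng/ml) and taken on day 3. KO_4OI (3 libraries) was labelled Acod1 KO and received 4-octyl-itaconate (4-OI), an itaconate ester that enters cells, at 50 µM on day 1. KO_CTR (3 libraries) carried the same genotype label and no treatment. WT_CTR (3 libraries) was labelled wild-type and untreated. The compound was not given to cells labelled wild-type, so in a difference between KO_4OI and WT_CTR the treatment and the genotype label cannot be told apart. The labels give neither the deleted part of Acod1, nor the age of the mice, nor a vehicle, and do not say whether the libraries of a group came from separate mice. P-values therefore rest on library-to-library spread, which may be technical, wholly or in part.

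Tumour necrosis factor and interleukin-1 are inflammatory signals that can promote osteoclast formation alongside RANKL, and the IL-1 receptor antagonist encoded by Il1rn occupies the IL-1 receptor without signalling. Cells make pro-IL-1β and pro-IL-18 as inactive precursors, and caspase-1 cuts both once a sensor such as NLRP3 has assembled an inflammasome. Cyclooxygenase-2, the product of Ptgs2, turns arachidonic acid into prostaglandin H2, and prostaglandin E synthase, the product of Ptges, turns that into prostaglandin E2. Transcript levels alone do not show cleavage of a precursor, enzyme activity or secretion.

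Library totals ran from 24830149 to 35143629 counted reads. Acod1, which encodes the itaconate-producing enzyme, had 135, 168 and 131 reads in the KO_4OI libraries and 60, 86 and 47 in the KO_CTR libraries, against 24, 27 and 55 in the WT_CTR libraries. Acod1 reads were thus not lower in the libraries labelled Acod1 KO, and the genotype is written here as a label. KO_4OI replicate 3 and WT_CTR replicate 2 had 8764 and 10715 reads mapped to Xist, which coats the inactive X chromosome, whereas the remaining 7 libraries had 0. Within KO_4OI and within WT_CTR the libraries thus did not all come from the same mouse. For KO_CTR the Xist reads do not tell. All 11 osteoclast markers were detected in every library, and all 11 fell in KO_4OI relative to KO_CTR: their summed level was 9140 to 11600 CPM (reads scaled to a common library total) in KO_4OI, 27900 to 34500 CPM in KO_CTR and 24900 to 26200 CPM in WT_CTR. In bulk RNA, fewer cells of a type and less RNA per cell cannot be told apart.

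Treatment went with higher Ptgs2, Ptges, Nlrp3 and Casp1 and with lower Il1b and Il1rn in cells labelled Acod1 KO. Of the 9 tested genes, 7 passed the threshold between KO_4OI and KO_CTR, 5 higher (Tnf, Ptgs2, Ptges, Nlrp3 and Casp1) and 2 lower (Il1b and Il1rn), where 27.3% of all 14264 tested genes passed, 13% higher and 14.2% lower. Between KO_4OI and WT_CTR 6 passed, 5 higher (Il18, Ptgs2, Ptges, Nlrp3 and Casp1) and 1 lower (Il1rn), against 24.3% of all tested genes, 12.1% higher and 12.2% lower. Between KO_CTR and WT_CTR 0 of 9 passed, where 0.519% of all tested genes did (0.470% higher and 0.0491% lower). The median log2 fold change of the 9 was 0.52 for KO_4OI over KO_CTR, 0.87 for KO_4OI over WT_CTR and 0.24 for KO_CTR over WT_CTR, beside 0.019, -0.034 and -0.025 over all tested genes. The threshold was an adjusted p of 0.05 (edgeR's quasi-likelihood test, Benjamini-Hochberg over all tested genes), and the 3 comparisons share libraries. Libraries of KO_4OI and KO_CTR did not overlap for 39.3% of all tested genes, and those of KO_4OI and WT_CTR for 41.9%. For KO_CTR and WT_CTR the share was 19.7%. Leaving out the libraries with Xist reads gave 6 of the 9 past the threshold for KO_4OI against KO_CTR, 6 for KO_4OI against WT_CTR and 0 for KO_CTR against WT_CTR, with 21.0%, 16.3% and 0.0345% of all tested genes past it.

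**Figure D1:**
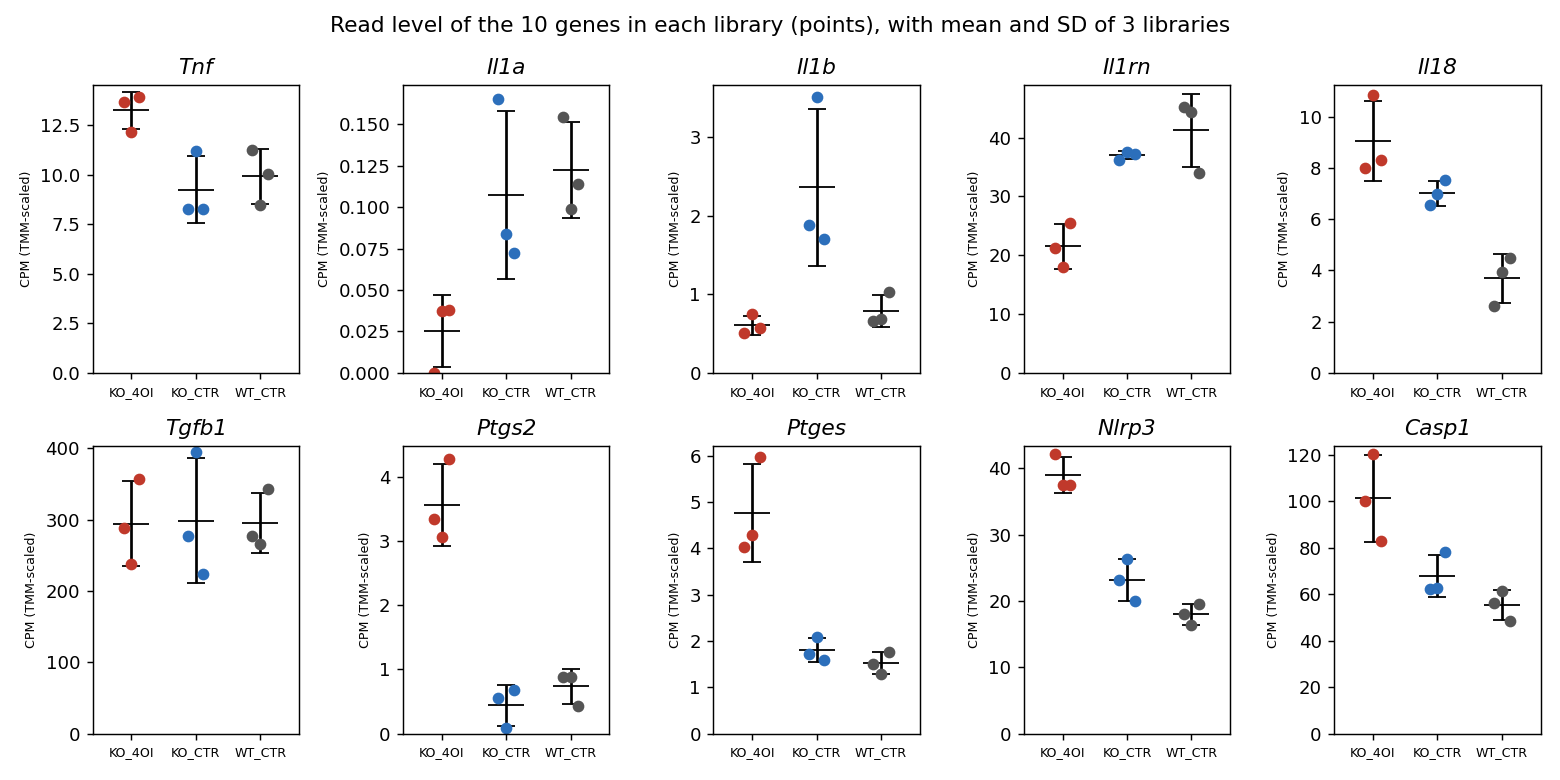
Level of each of the 10 genes in CPM (vertical axis, starting at 0, scaled to each gene) in the 3 libraries of KO_4OI, KO_CTR and WT_CTR. Points are libraries, and bars are the mean and SD of 3 libraries; Ptgs2 and Ptges lie higher in every KO_4OI library than in any other library, and Il1rn lies lower.

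Ordered by level per transcript length (CPM per kilobase of merged exons), the genes spanned a wide range. In KO_4OI Casp1 (67.6 ± 12.5) and Tgfb1 (58.4 ± 11.8) came first, with overlapping libraries, followed by Nlrp3 (9.61 ± 0.668), Il18 (8.78 ± 1.50) and Tnf (8.08 ± 0.574), whose neighbours in the order overlapped (SD, n = 3 each). Il1rn (3.90 ± 0.690), Ptges (1.21 ± 0.268), Ptgs2 (0.777 ± 0.139), Il1b (0.319 ± 0.0640) and Il1a (0.0127 ± 0.0110) followed in KO_4OI, each apart from its neighbours.
In KO_CTR the order by length-scaled level was Tgfb1 (59.2 ± 17.3), Casp1 (45.3 ± 6.03), Il18 (6.81 ± 0.473), Il1rn (6.68 ± 0.125), Nlrp3 (5.71 ± 0.776), Tnf (5.64 ± 1.02), Il1b (1.24 ± 0.524), Ptges (0.458 ± 0.0663), Ptgs2 (0.0970 ± 0.0695) and Il1a (0.0543 ± 0.0257). Tgfb1 and Casp1, Il18 and Il1rn, Nlrp3 and Tnf, and Ptgs2 and Il1a overlapped there. In WT_CTR it was Tgfb1 (58.5 ± 8.34), Casp1 (36.9 ± 4.41), Il1rn (7.45 ± 1.13), Tnf (6.05 ± 0.848), Nlrp3 (4.43 ± 0.384), Il18 (3.57 ± 0.924), Il1b (0.415 ± 0.107), Ptges (0.387 ± 0.0614), Ptgs2 (0.161 ± 0.0582) and Il1a (0.0620 ± 0.0146). Il1rn and Tnf, Nlrp3 and Il18, and Il1b and Ptges overlapped there. Ptgs2 and Ptges lay above Il1b in KO_4OI and below it in both other groups by their means. With the length of the longest transcript in place of the merged exons, the length-scaled level of Il1rn was 8.44 in KO_4OI, 14.5 in KO_CTR and 16.1 in WT_CTR, so its place among the middle genes depends on the length used. That of Tgfb1 was 114 in KO_4OI, 116 in KO_CTR and 115 in WT_CTR, while that of Casp1 stayed at 67.6 in KO_4OI, so which of the pair leads in KO_4OI depends on the length as well.

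Of the enzymes that make prostaglandin E2, Ptgs2 (ENSMUSG00000032487, GRCm38 chromosome 1, 150100031 to 150108227, plus strand) showed the largest fold change of the 9 tested genes. Its level was 3.34, 3.06 and 4.28 CPM in KO_4OI, 0.562, 0.0837 and 0.687 CPM in KO_CTR, and 0.888, 0.889 and 0.428 CPM in WT_CTR. The reads behind these were 91, 82 and 113 in KO_4OI, 17, 2 and 19 in KO_CTR, and 23, 27 and 15 in WT_CTR. Every KO_4OI library lay above every other library, and KO_CTR replicate 2 was the lowest, with 2 reads. Ptgs2 rose by a log2 fold change of 2.95 in KO_4OI over KO_CTR (SE 0.45, adjusted p = 3.05e-04, edgeR) and by 2.29 over WT_CTR (SE 0.42, adjusted p = 0.00127, edgeR). The first of these ran from 2.47 to 3.36 over the alternative settings, and both passed in all 18 that tested the gene. KO_CTR and WT_CTR overlapped, with a log2 fold change of -0.66 (95% interval -1.63 to 0.31, adjusted p = 0.508, edgeR). Ptgs1, which encodes the other cyclooxygenase, is named after its values were seen. It averaged 43.5 CPM in KO_4OI, 13.8 CPM in KO_CTR and 11.6 CPM in WT_CTR. Its log2 fold change of KO_4OI over KO_CTR was 1.66 (SE 0.18, adjusted p = 2.06e-05, edgeR).

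Ptges (ENSMUSG00000050737, GRCm38 chromosome 2, 30889471 to 30929863, minus strand), which encodes the inducible prostaglandin E synthase, moved the same way. Its level was 4.03, 4.29 and 5.98 CPM in KO_4OI, 1.72, 2.09 and 1.59 CPM in KO_CTR, and 1.51, 1.28 and 1.77 CPM in WT_CTR. The KO_4OI libraries lay above all others, and the untreated groups overlapped. Ptges rose by a log2 fold change of 1.41 in KO_4OI over KO_CTR (SE 0.24, adjusted p = 6.82e-04, edgeR) and by 1.64 over WT_CTR (SE 0.24, adjusted p = 2.29e-04, edgeR), and both held in all 18 alternative settings that tested it. Between KO_CTR and WT_CTR the log2 fold change was 0.24 (95% interval -0.25 to 0.73, adjusted p = 0.647, edgeR).

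The 250 bases before the start sites of Ptgs2 and Ptges are shown because these genes rose most among the 9. Both come from RefSeq (GRCm38.p6), and capitals mark the match to TTGCNNAA, a sequence of the kind C/EBP factors bind; Ptgs2 is chr1:150099781-150100030, plus strand, and Ptges is chr2:30903298-30903547, minus strand.
Ptgs2: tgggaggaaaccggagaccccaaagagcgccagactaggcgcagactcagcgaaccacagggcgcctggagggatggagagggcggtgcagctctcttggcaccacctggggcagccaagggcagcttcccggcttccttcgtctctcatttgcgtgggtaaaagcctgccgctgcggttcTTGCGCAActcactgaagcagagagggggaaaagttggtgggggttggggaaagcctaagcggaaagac
Ptges: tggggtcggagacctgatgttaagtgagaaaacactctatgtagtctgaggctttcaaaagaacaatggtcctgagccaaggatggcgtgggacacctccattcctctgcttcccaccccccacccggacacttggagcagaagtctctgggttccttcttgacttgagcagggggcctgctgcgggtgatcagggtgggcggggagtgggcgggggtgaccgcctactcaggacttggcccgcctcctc
The match in Ptgs2 lies 69 to 62 bases before the start, and TTGCNNAA was found on either strand in 9.56% of 32851 mouse promoters of this length. The Ptges window lies inside the span given above for the gene, and no start farther out in that span was searched. None of the 7 sequences searched was found in the Ptges window. The others were TATAAA (12.4% of promoters), TGACNNNGC (the core of the antioxidant response element, 10.2%), TGANTCA (AP-1, 6.75%), TGACG (the half-site of the cAMP response element, 17.8%), the interferon-stimulated response element (2.98%) and the NF-kB motif (7.25%), each searched on both strands. The bases matched in Ptgs2, TTGCGCAA, read the same on both strands, so that match was found on both. These matches describe letters in a window, and a window without a match says nothing about a factor.

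The wider prostanoid and leukotriene genes went the same way as Ptgs2 and Ptges more often than not. Of 24 tested genes of that list, which does not include the 10 genes above, 13 rose and 4 fell in KO_4OI relative to KO_CTR. Of all tested genes 13% rose and 14.2% fell. The median log2 fold change of the list was 0.63, beside 0.019 over all tested genes. Ptgr1, which encodes an enzyme that inactivates leukotriene B4 and 15-keto prostaglandins, was at 415, 488 and 454 CPM in KO_4OI against 31.3, 34.8 and 42.5 CPM in KO_CTR (log2 fold change 3.64, SE 0.16, adjusted p = 9.04e-09, edgeR). Ptger2, which encodes the EP2 receptor for prostaglandin E2, was at 29.2, 40.6 and 28.2 CPM in KO_4OI against 2.28, 2.34 and 2.31 CPM in KO_CTR (log2 fold change 3.82, SE 0.26, adjusted p = 3.20e-07, edgeR). Both genes stood clear of KO_CTR in every treated library.
Ptgir, the prostacyclin receptor, averaged 60.3 ± 2.53 CPM in KO_4OI and 14.0 ± 4.13 CPM in KO_CTR (log2 fold change 2.11, SE 0.21, adjusted p = 7.99e-06, edgeR). Abcc4, a transporter that exports prostaglandins, averaged 70.5 ± 6.97 CPM in KO_4OI and 23.2 ± 2.03 CPM in KO_CTR (log2 fold change 1.61, SE 0.15, adjusted p = 5.12e-06, edgeR; SD, n = 3 each). Against WT_CTR, 13 of the 24 rose in KO_4OI and 1 fell, where 12.1% of all tested genes rose and 12.2% fell. Ptger2 was again among the largest changes, at 32.7 CPM in KO_4OI and 1.44 CPM in WT_CTR on average (log2 fold change 4.50, adjusted p = 9.60e-08, edgeR). Between KO_CTR and WT_CTR 0 of the 24 passed, while 12 had an unadjusted p below 0.05, a larger share than the 17.8% of all tested genes.
The 4 genes of the list that fell relative to KO_CTR are named after their values were seen. Ptges2, which encodes another prostaglandin E synthase, was at 29.3, 24.3 and 32.1 CPM in KO_4OI against 51.0, 63.5 and 46.5 CPM in KO_CTR (log2 fold change -0.91, SE 0.17, adjusted p = 0.00141, edgeR), and was also the gene that fell relative to WT_CTR (28.6 CPM in KO_4OI and 57.3 CPM in WT_CTR on average, adjusted p = 7.18e-04, edgeR). The genes for prostaglandin E synthases thus did not move together relative to KO_CTR, with Ptges and Ptges3 up and Ptges2 down. Ptges3 averaged 202 ± 14.2 CPM in KO_4OI and 122 ± 24.1 CPM in KO_CTR (log2 fold change 0.73, adjusted p = 0.00611, edgeR). Hpgd, which encodes a prostaglandin-inactivating dehydrogenase, averaged 14.0 ± 6.45 CPM in KO_4OI and 31.2 ± 2.10 CPM in KO_CTR (log2 fold change -1.16, adjusted p = 0.0103, edgeR). The others were Ltc4s, the leukotriene C4 synthase (log2 fold change -1.32, adjusted p = 0.00547, edgeR), and Ptger3, the EP3 receptor (log2 fold change -0.76, adjusted p = 0.0141, edgeR). Ltc4s averaged 2.763 CPM in KO_4OI and 6.908 CPM in KO_CTR, and Ptger3 4.429 and 7.525 CPM. In WT_CTR Ptges3 averaged 194.7, Hpgd 11.53, Ltc4s 2.885 and Ptger3 3.885 CPM, each nearer to KO_4OI than to KO_CTR. None of these passed between KO_CTR and WT_CTR (adjusted p 0.0539 to 0.0857, edgeR). Hpgd did in 9 of 19 alternative settings.

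**Figure D2:**
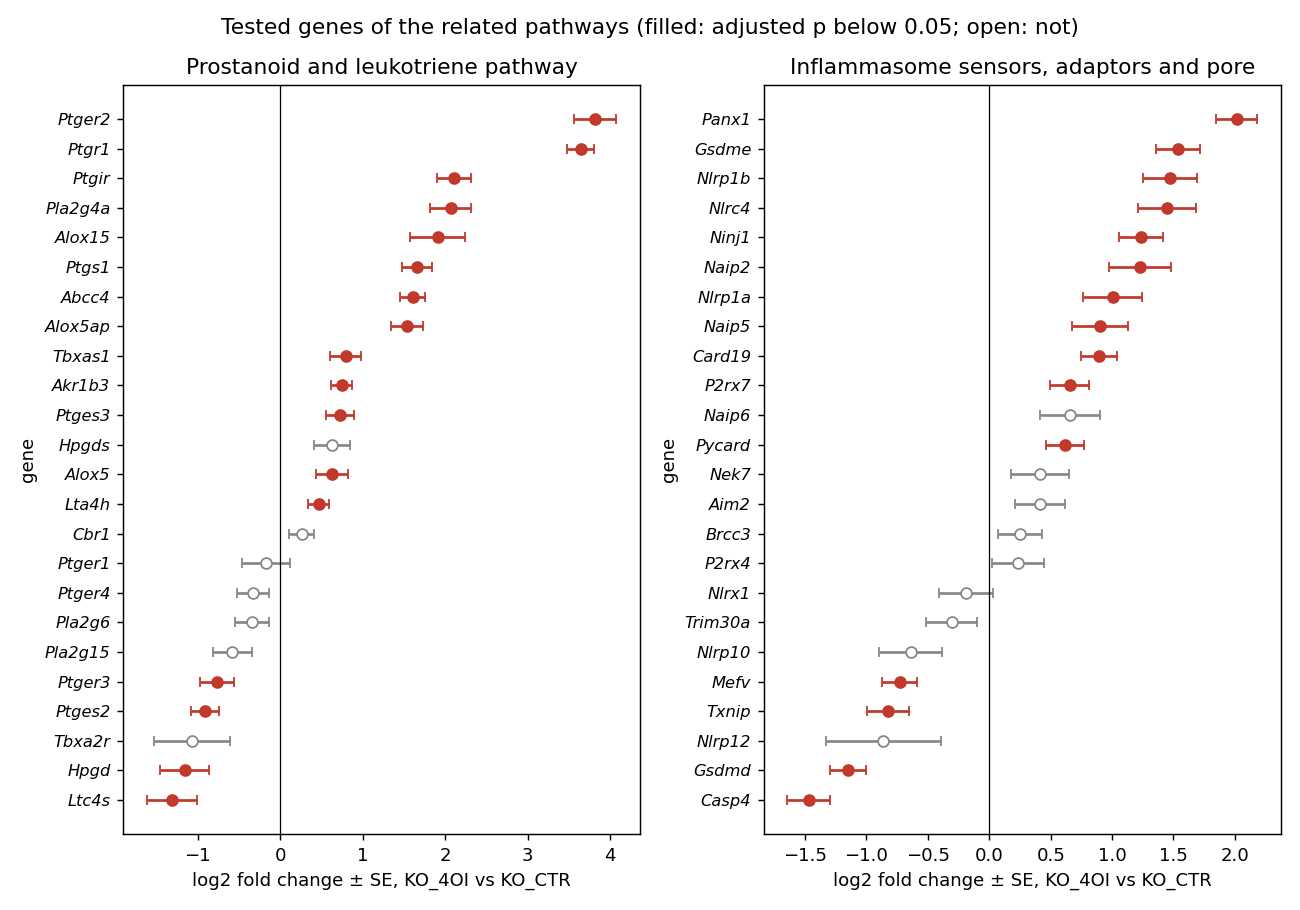
log2 fold change of KO_4OI over KO_CTR with its SE (horizontal axes) for the 24 tested genes of the prostanoid and leukotriene list (left) and the 24 of the inflammasome list (right). Filled points passed the adjusted p of 0.05; on the left 13 passed to the right of 0 and 4 to the left, and on the right panel 11 and 4.

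Nlrp3 (ENSMUSG00000032691, GRCm38 chromosome 11, 59541568 to 59566956, plus strand), which encodes the sensor that starts inflammasome assembly, was at 42.1, 37.4 and 37.4 CPM in KO_4OI, 23.1, 26.3 and 20.0 CPM in KO_CTR, and 18.0, 16.4 and 19.5 CPM in WT_CTR. The groups did not overlap: KO_4OI was highest and WT_CTR lowest. KO_4OI did not overlap KO_CTR for 39.3% of all tested genes, nor WT_CTR for 41.9%. Nlrp3 rose by a log2 fold change of 0.75 in KO_4OI over KO_CTR (SE 0.16, adjusted p = 0.00295, edgeR) and by 1.12 over WT_CTR (SE 0.16, adjusted p = 1.76e-04, edgeR), and both held in all 19 alternative settings. The difference between KO_CTR and WT_CTR, 0.36 (SE 0.16), did not pass (adjusted p = 0.255, edgeR).

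Casp1 (ENSMUSG00000025888, GRCm38 chromosome 9, 5298517 to 5307265, plus strand), which encodes the protease that cuts pro-IL-1β, pro-IL-18 and gasdermin D, was at 100.2, 120.3 and 83.0 CPM in KO_4OI, 62.4, 62.8 and 78.2 CPM in KO_CTR, and 56.0, 61.5 and 48.4 CPM in WT_CTR. The groups again did not overlap, although the lowest KO_4OI library was close to the highest KO_CTR library. Casp1 rose by a log2 fold change of 0.58 in KO_4OI over KO_CTR (SE 0.17, adjusted p = 0.0223, edgeR) and by 0.87 over WT_CTR (SE 0.17, adjusted p = 0.00204, edgeR). Among the fits without 1 library, the first call was lost without KO_4OI replicate 1 (adjusted p = 0.0686, edgeR), without KO_4OI replicate 2 (0.107) and without KO_CTR replicate 1 (0.0859); the second held in all 19 settings. KO_CTR was 0.29 above WT_CTR on the log2 scale (SE 0.17, adjusted p = 0.384, edgeR).

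Other inflammasome genes moved both ways. Of 24 tested genes beside Nlrp3 and Casp1, 11 rose and 4 fell in KO_4OI relative to KO_CTR, with a median log2 fold change of 0.51. Of all tested genes 13% rose and 14.2% fell. Panx1, which encodes a membrane channel that releases ATP, was at 106, 86.7 and 117 CPM in KO_4OI against 25.2, 29.3 and 22.1 CPM in KO_CTR (log2 fold change 2.02, SE 0.17, adjusted p = 1.76e-06, edgeR). Gsdme, which encodes the pore protein gasdermin E, was at 58.1, 58.4 and 50.2 CPM in KO_4OI against 19.9, 14.8 and 22.7 CPM in KO_CTR (log2 fold change 1.54, SE 0.18, adjusted p = 3.61e-05, edgeR). Both rose in every treated library.
Gsdmd, the pore protein that caspase-1 cuts, went the other way, at 141, 142 and 165 CPM in KO_4OI against 295, 380 and 320 CPM in KO_CTR (log2 fold change -1.15, SE 0.15, adjusted p = 7.05e-05, edgeR). Casp4, which encodes the mouse caspase-11 that senses intracellular lipopolysaccharide, was at 13.7, 14.5 and 11.0 CPM in KO_4OI against 34.7, 31.9 and 42.0 CPM in KO_CTR (log2 fold change -1.47, SE 0.17, adjusted p = 3.87e-05, edgeR). Thus Casp1 and Gsdmd, a protease and its substrate, changed in opposite directions. Against WT_CTR 13 of the 24 rose and 3 fell in KO_4OI, where 12.1% of all tested genes rose and 12.2% fell. In KO_CTR relative to WT_CTR 0 passed and 7 had an unadjusted p below 0.05, beside 17.8% of all tested genes. The Naip and Nlrp1 genes of the list have near-identical copies, and reads could be split between them, so their single values are uncertain.

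Il1b (ENSMUSG00000027398, GRCm38 chromosome 2, 129364570 to 129371139, minus strand) fell most of the 9 tested genes in KO_4OI relative to KO_CTR. It was at 0.514, 0.747 and 0.567 CPM in KO_4OI, 1.88, 3.52 and 1.70 CPM in KO_CTR, and 0.657, 0.692 and 1.03 CPM in WT_CTR, from 14, 20 and 15 reads in KO_4OI, 57, 84 and 47 in KO_CTR, and 17, 21 and 36 in WT_CTR. KO_CTR stood above both other groups in every library, with replicate 2 highest, while KO_4OI and WT_CTR overlapped. Il1b fell by 1.94 on the log2 scale in KO_4OI relative to KO_CTR (SE 0.36, adjusted p = 0.00124, edgeR), a call that held in all 18 alternative settings that tested it. KO_4OI against WT_CTR gave -0.39 (95% interval -1.14 to 0.36, adjusted p = 0.533, edgeR).
KO_CTR was 1.55 above WT_CTR on the log2 scale (SE 0.34), which did not pass (adjusted p = 0.0653, edgeR); the adjusted p ran from 3.58e-04 to 0.352 over the alternatives, and 4 of 18 took it past the threshold, among them the fit without WT_CTR replicate 3 (0.0408). The promoter of Il1b is shown because of the 9 tested genes it fell most relative to KO_CTR, chr2:129371140-129371389, minus strand, with a match to TATAAA in capitals, 31 to 26 bases before the start (RefSeq, GRCm38.p6).
Il1b: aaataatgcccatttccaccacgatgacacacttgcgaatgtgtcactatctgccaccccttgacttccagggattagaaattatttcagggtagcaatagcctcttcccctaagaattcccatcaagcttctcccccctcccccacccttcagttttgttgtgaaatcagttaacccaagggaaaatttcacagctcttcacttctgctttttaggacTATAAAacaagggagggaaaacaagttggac
TATAAA on the gene's strand near this distance was also found for Tnf (29 to 24 bases before the start) and Il1a (32 to 27), and none of the other 6 sequences was found in the Il1b window. Il1b shares 1.31% of its exon bases with the opposite-strand gene Il1bos, which held 0 to 3 reads per library.

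Il1a (ENSMUSG00000027399, GRCm38 chromosome 2, 129299610 to 129309972, minus strand), which encodes IL-1α, was barely detected. It had 0, 1 and 1 reads in KO_4OI, 5, 2 and 2 in KO_CTR, and 4, 3 and 4 in WT_CTR. Pooled reads gave a ratio of 0.226 for KO_4OI over KO_CTR (95% Clopper-Pearson interval 0.0237 to 1.09) and 0.206 for KO_4OI over WT_CTR (0.0222 to 0.945). For KO_CTR over WT_CTR the ratio was 0.914 (0.335 to 2.43); these intervals cover counting error only. Of the Il1a exon bases 11.2% are shared with Gm14023 on the opposite strand, which held 2 to 20 reads per library, and the strand setting of the counting is not given in the sources used here.

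Il1rn (ENSMUSG00000026981, GRCm38 chromosome 2, 24336853 to 24351494, plus strand), the antagonist, was at 21.2, 17.9 and 25.5 CPM in KO_4OI, 36.2, 37.5 and 37.2 CPM in KO_CTR, and 45.3, 44.4 and 34.1 CPM in WT_CTR. Every KO_4OI library lay below every other library, and the untreated groups overlapped. Il1rn fell by 0.78 on the log2 scale relative to KO_CTR (SE 0.17, adjusted p = 0.00438, edgeR) and by 0.93 relative to WT_CTR (SE 0.17, adjusted p = 0.00136, edgeR), and both held in all 19 alternative settings. The log2 fold change of KO_CTR over WT_CTR was -0.16 (95% interval -0.49 to 0.18, adjusted p = 0.657, edgeR).
Agonist and antagonist reads were set against each other within a library. Il1rn had 41.4, 22.9 and 42.2 reads for each read of Il1a and Il1b together in KO_4OI, 17.7, 10.4 and 21.0 in KO_CTR, and 55.8, 56.1 and 29.9 in WT_CTR. All KO_CTR libraries lay below all others, and KO_4OI and WT_CTR overlapped. The log2 ratio averaged 5.09 ± 0.50 in KO_4OI, 3.97 ± 0.53 in KO_CTR and 5.51 ± 0.52 in WT_CTR (SD, n = 3 each). KO_4OI exceeded KO_CTR by 1.12 and KO_CTR was 1.53 below WT_CTR (a difference of -1.53), each with p = 0.1 in a two-sided exact permutation test, the smallest that 3 libraries against 3 allow, so neither could reach 0.05. KO_4OI minus WT_CTR was -0.41 (p = 0.5, same exact test). With Benjamini-Hochberg adjustment over the 3 differences no value can be lower than these.

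**Figure D3:**
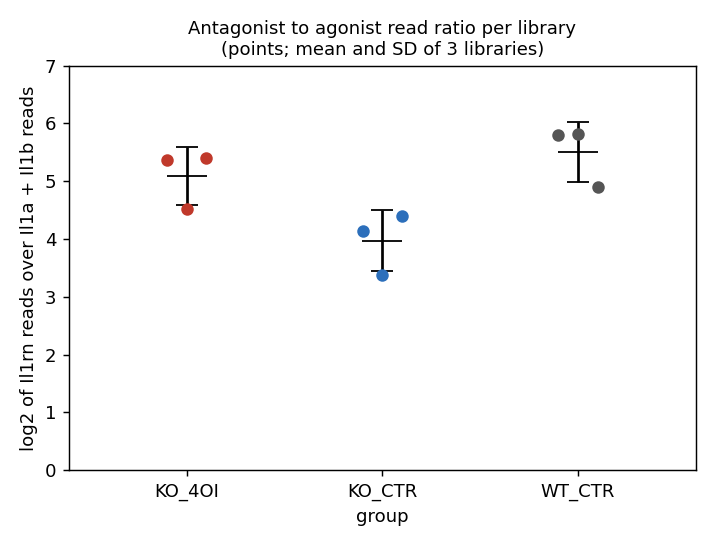
log2 of Il1rn reads over the summed Il1a and Il1b reads (vertical axis) in the 3 libraries of KO_4OI, KO_CTR and WT_CTR. Points are libraries and bars the mean and SD; KO_CTR averages 3.97, below KO_4OI at 5.09 and WT_CTR at 5.51.

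Il18 (ENSMUSG00000039217, GRCm38 chromosome 9, 50554827 to 50581840, plus strand), the other cytokine that caspase-1 matures, differed from Il1b. It was at 8.0, 10.8 and 8.32 CPM in KO_4OI, 6.55, 6.99 and 7.52 CPM in KO_CTR, and 2.63, 3.95 and 4.47 CPM in WT_CTR. The groups did not overlap, with KO_4OI highest and WT_CTR lowest. Il18 rose by a log2 fold change of 1.29 in KO_4OI over WT_CTR (SE 0.22, adjusted p = 7.01e-04, edgeR), which held in all 19 alternative settings, while KO_4OI over KO_CTR was 0.37 (95% interval -0.05 to 0.78, adjusted p = 0.223, edgeR). KO_CTR over WT_CTR was 0.92 (SE 0.22) and did not pass (adjusted p = 0.0755, edgeR; 0.00342 to 0.370 over the alternatives, and 0.0406 without WT_CTR replicate 3).

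Receptors and signal carriers of the IL-1 family moved both ways. Of 16 tested, 5 rose and 2 fell in KO_4OI relative to KO_CTR (median log2 fold change -0.0063), and 4 rose and 1 fell relative to WT_CTR. Of all tested genes 13% rose and 14.2% fell relative to KO_CTR, and 12.1% rose and 12.2% fell relative to WT_CTR. Il1f9, which encodes the IL-1 family cytokine IL-36γ, was at 116, 125 and 90.2 CPM in KO_4OI against 4.36, 3.81 and 3.91 CPM in KO_CTR (log2 fold change 4.77, SE 0.24, adjusted p = 1.65e-08, edgeR), with 4.94 CPM on average in WT_CTR. All 3 treated libraries were far above the untreated ones. Il18rap, a subunit of the IL-18 receptor, averaged 11.9 ± 1.18 CPM in KO_4OI and 3.90 ± 0.965 CPM in KO_CTR (log2 fold change 1.60, SE 0.20, adjusted p = 7.42e-05, edgeR). Irak3, an inhibitor of signalling from these receptors, was at 24.4 ± 4.95 CPM in KO_4OI and 14.2 ± 0.403 CPM in KO_CTR (log2 fold change 0.79, adjusted p = 0.00388, edgeR). Irak2, a kinase of the same signalling complex, fell to 37.6 ± 1.36 CPM in KO_4OI, against 63.6 ± 3.96 CPM in KO_CTR (log2 fold change -0.76, adjusted p = 8.23e-04, edgeR). Without KO_CTR replicate 2, 8 of the 16 passed between KO_4OI and WT_CTR in place of 5, where 29.9% of all tested genes did. For KO_CTR against WT_CTR 0 of the 16 passed and 2 had an unadjusted p below 0.05, beside 17.8% of all tested genes.

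Tnf (ENSMUSG00000024401, GRCm38 chromosome 17, 35199381 to 35202007, minus strand) was at 13.6, 12.2 and 13.9 CPM in KO_4OI, 8.27, 11.2 and 8.28 CPM in KO_CTR, and 11.2, 8.47 and 10.0 CPM in WT_CTR. The KO_4OI libraries lay above the others, and the untreated groups overlapped. The log2 fold change of KO_4OI over KO_CTR was 0.52 (SE 0.18, adjusted p = 0.0486, edgeR), just past the threshold. This call was lost in 15 of 19 alternative settings, with an adjusted p of up to 0.152 without KO_CTR replicate 1. In 8 of the 9 fits without 1 library it was lost, the exception being the fit without KO_CTR replicate 2. KO_4OI over WT_CTR was 0.42 (adjusted p = 0.118, edgeR) and KO_CTR over WT_CTR -0.10 (95% interval -0.46 to 0.26, adjusted p = 0.805, edgeR).
Among TNF receptors and their signal carriers, 2 of 21 tested genes rose and 6 fell in KO_4OI relative to KO_CTR. Relative to WT_CTR 1 rose and 4 fell. The shares over all tested genes were 13% and 14.2% relative to KO_CTR, and 12.1% and 12.2% relative to WT_CTR. Tnfrsf1b, the receptor TNFR2, was at 486, 589 and 526 CPM in KO_4OI against 133, 245 and 114 CPM in KO_CTR (log2 fold change 1.70, SE 0.26, adjusted p = 3.13e-04, edgeR), and averaged 69.1 CPM in WT_CTR. The KO_4OI level was thus above both untreated groups. Tnfrsf1b in KO_CTR was 1.25 above WT_CTR on the log2 scale (SE 0.26), which did not pass (adjusted p = 0.0529, edgeR). In 7 of 19 alternative settings it did. Traf1, an adaptor of the TNF receptor complex, fell to 39.7, 33.4 and 46.4 CPM in KO_4OI, against 132, 152 and 119 CPM in KO_CTR (log2 fold change -1.75, SE 0.16, adjusted p = 3.92e-06, edgeR). Traf5 (-0.85, adjusted p = 0.00111, edgeR) and the ubiquitin ligase gene Birc3 (-0.86, adjusted p = 0.00651, edgeR) fell too. The list's count of 8 between KO_4OI and KO_CTR was 5 without KO_4OI replicate 1 or 2, where 18.4% and 20.6% of all tested genes passed. Its count of 5 between KO_4OI and WT_CTR, near the 24.3% of all tested genes, was 2 without WT_CTR replicate 1 (18.1% of all tested genes), WT_CTR replicate 2 (17.1%), KO_CTR replicate 1 (22.4%) or KO_4OI replicate 1 (17.3%). It was 3 without WT_CTR replicate 3 (20.9%) or the libraries with Xist reads (16.3%), and 8 without KO_CTR replicate 2 (29.9%). Between KO_CTR and WT_CTR 0 of the 21 passed and 2 had an unadjusted p below 0.05, beside 17.8% of all tested genes.

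Tgfb1 (ENSMUSG00000002603, GRCm38 chromosome 7, 25687002 to 25705077, plus strand), which encodes a cytokine stored in bone matrix in latent form, varied more within groups than between them. It was at 288.9, 237.7 and 356.4 CPM in KO_4OI, 277.4, 394.4 and 224.1 CPM in KO_CTR, and 277.2, 265.1 and 343.3 CPM in WT_CTR. All groups overlapped. The log2 fold change was -0.02 for KO_4OI over KO_CTR (95% interval -0.43 to 0.38, adjusted p = 0.954, edgeR), 0.00 to 2 decimals for KO_4OI over WT_CTR (-0.41 to 0.40, adjusted p = 0.993) and 0.02 for KO_CTR over WT_CTR (-0.39 to 0.42, adjusted p = 0.978). The signs of these values changed with the scaling or the library left out.
Of 25 tested genes of the TGF-β family, its activation and its signalling, 5 rose and 5 fell in KO_4OI relative to KO_CTR. Relative to WT_CTR 8 rose and 6 fell. The shares over all tested genes were 13% and 14.2% relative to KO_CTR, and 12.1% and 12.2% relative to WT_CTR. Itgb8, a subunit of an integrin that activates latent TGF-β, was at 1.83, 2.76 and 1.85 CPM in KO_4OI against 0.165, 0.0837 and 0.398 CPM in KO_CTR (log2 fold change 3.27, SE 0.44, adjusted p = 1.11e-04, edgeR). This fold change ran from 2.90 to 4.02 over the alternative settings, the highest without KO_CTR replicate 3, the KO_CTR library with the most Itgb8. Acvrl1, a receptor of the family, averaged 31.6 ± 3.88 CPM in KO_4OI and 8.49 ± 2.83 CPM in KO_CTR (log2 fold change 1.90, adjusted p = 1.94e-04, edgeR). Ltbp2, a matrix protein of the latent TGF-β binding family, fell to 0.896 ± 0.181 CPM in KO_4OI, against 4.40 ± 1.68 CPM in KO_CTR (log2 fold change -2.29, adjusted p = 1.11e-04, edgeR). Smurf1, a ubiquitin ligase that targets receptors and Smads, fell to 30.8 ± 7.10 CPM, against 74.1 ± 21.9 CPM in KO_CTR (log2 fold change -1.27, adjusted p = 8.74e-04, edgeR). The list's count of 10 between KO_4OI and KO_CTR was 6 without KO_4OI replicate 1 (18.4% of all tested genes), and its count of 14 between KO_4OI and WT_CTR dropped to 9 when WT_CTR replicate 1 was left out (18.1%), to 8 when replicate 2 of that group was (17.1%), and to 7 when both libraries with Xist reads were (16.3%). For KO_CTR against WT_CTR 0 of the 25 passed and 6 had an unadjusted p below 0.05, beside 17.8% of all tested genes.

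**Figure D4:**
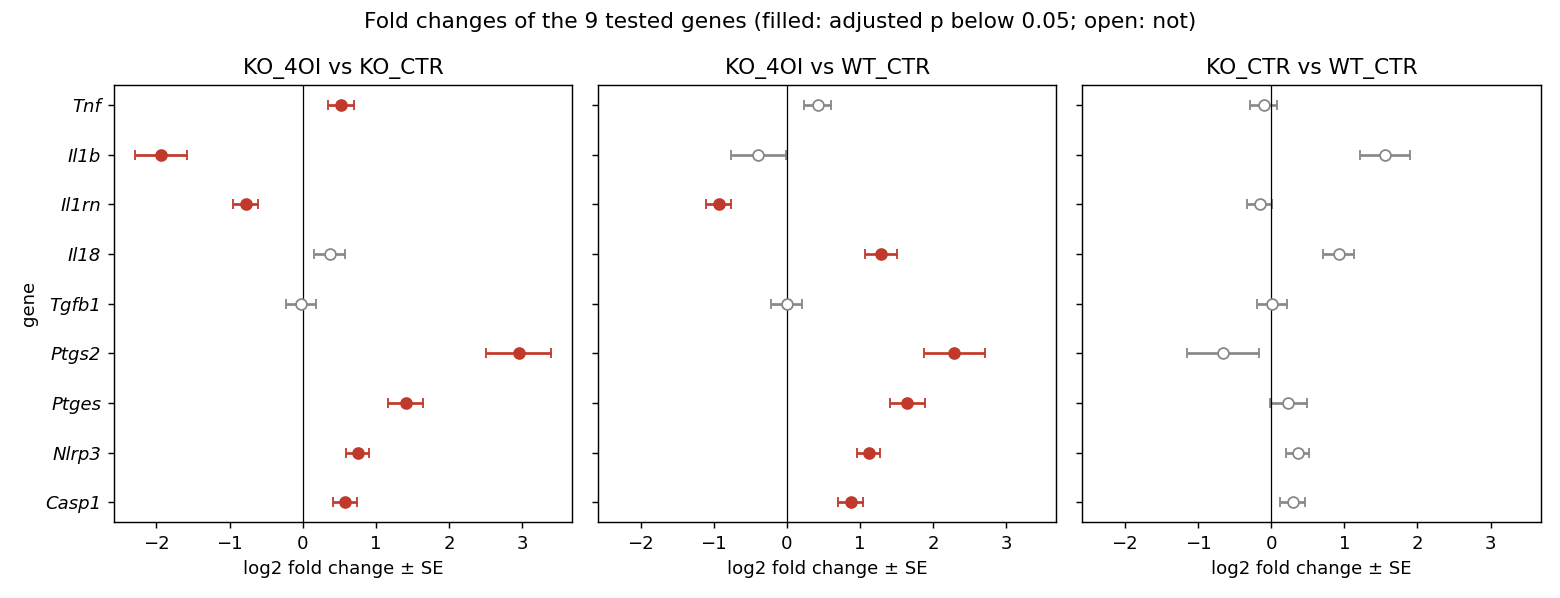
log2 fold change with its SE (horizontal axes) of the 9 tested genes in KO_4OI over KO_CTR, KO_4OI over WT_CTR and KO_CTR over WT_CTR. Filled points passed the adjusted p of 0.05: 7 in the left panel, 6 in the middle and 0 on the right, where Il1b at 1.55 and Il18 at 0.92 lie farthest above 0.

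Of 20 tested genes of other cytokines, 8 rose and 4 fell in KO_4OI relative to KO_CTR, and 10 rose and 3 fell relative to WT_CTR. The shares over all tested genes were 13% and 14.2% relative to KO_CTR, and 12.1% and 12.2% relative to WT_CTR. Il10, an anti-inflammatory cytokine, was at 2.86, 3.25 and 4.01 CPM in KO_4OI against 1.09, 0.753 and 1.30 CPM in KO_CTR (log2 fold change 1.67, SE 0.28, adjusted p = 7.06e-04, edgeR). Gdf15, a stress-induced cytokine, averaged 4.32 ± 0.404 CPM in KO_4OI and 1.33 ± 0.393 CPM in KO_CTR (log2 fold change 1.70, adjusted p = 3.14e-04, edgeR). Tnfsf14, the TNF family ligand LIGHT, averaged 8.91 ± 0.906 CPM in KO_4OI and 4.34 ± 0.739 CPM in KO_CTR (log2 fold change 1.04, adjusted p = 0.00104, edgeR). Bmp2, a bone morphogenetic protein, fell to 0.174 ± 0.0215 CPM in KO_4OI, against 1.03 ± 0.318 CPM in KO_CTR (log2 fold change -2.53, adjusted p = 4.39e-04, edgeR). In KO_CTR relative to WT_CTR 0 of the 20 passed and 6 had an unadjusted p below 0.05, beside 17.8% of all tested genes. Without the libraries with Xist reads 6 of the 20 passed for KO_4OI against WT_CTR in place of 13, and 8 did without KO_4OI replicate 2, where 16.3% and 17.7% of all tested genes passed.

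The difference between KO_CTR and WT_CTR asked what the genotype label goes with in untreated cells. None of the 9 tested genes passed by edgeR, 3 of them (Il1b, Il18 and Nlrp3) had an unadjusted p below 0.05, where 17.8% of all tested genes did. DESeq2 called 2 of the 9 and 4.41% of all tested genes, and limma-trend called 0 of the 9 and 0.407% of all. Il1b, Il18, Nlrp3 and Casp1 were higher in every KO_CTR library than in any WT_CTR library, which held in one direction or the other for 19.7% of all tested genes. Of the pathway lists, DESeq2 called 6 prostanoid and leukotriene genes, 2 TNF genes and 1 each of the IL-1, TGF-β, inflammasome and other cytokine genes, and limma-trend called 0 in each. Counts over all tested genes rested on single libraries here: 74 passed with all libraries, 0 without WT_CTR replicate 1 and 247 without WT_CTR replicate 3. The direction rests on the genotype label, which the Acod1 reads did not follow.

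Markers of other cells moved with the treatment as well. Neutrophil markers summed to 2100 to 3190 CPM in KO_4OI, 934 to 1380 CPM in KO_CTR and 767 to 1100 CPM in WT_CTR, with 3 of 13 (Mmp8, Mpo and Prtn3) higher in KO_4OI than in KO_CTR and 0 lower. Mmp8 alone was at 1310, 1850 and 999 CPM in KO_4OI against 78.9, 68.9 and 95.6 CPM in KO_CTR; without it the sums were 1100 to 1340 CPM in KO_4OI, 838 to 1310 CPM in KO_CTR and 702 to 1040 CPM in WT_CTR. Of 11 tested macrophage markers 3 rose and 5 fell in KO_4OI relative to KO_CTR (sums 2790 to 3160 CPM in KO_4OI, 3380 to 4740 CPM in KO_CTR and 2690 to 3230 CPM in WT_CTR).
Of 10 dendritic cell markers 1 (Itgax) rose and 7 fell relative to KO_CTR, while Xcr1 and Clec9a did not pass. The sums, 105 to 106 CPM in KO_4OI, 192 to 302 CPM in KO_CTR and 92.7 to 152 CPM in WT_CTR, were highest in KO_CTR. Much of each sum was H2-Aa alone, at 47.7, 47.7 and 46.9 CPM in KO_4OI, 132, 231 and 182 CPM in KO_CTR, and 63.8, 90.3 and 113 CPM in WT_CTR. Of 6 inflammatory monocyte markers 1 was higher and 1 lower in KO_4OI than in KO_CTR (510 to 896 CPM in KO_4OI, 566 to 653 CPM in KO_CTR and 414 to 456 CPM in WT_CTR). Of 9 tested B cell markers 0 passed for KO_4OI against KO_CTR and 0 for KO_CTR against WT_CTR, where 8 had an unadjusted p below 0.05 (117 to 141 CPM in KO_4OI, 101 to 142 CPM in KO_CTR and 55.0 to 85.6 CPM in WT_CTR). Relative to WT_CTR, KO_4OI was higher for 7 of 13 neutrophil, 5 of 11 macrophage, 3 of 6 inflammatory monocyte, 3 of 9 B cell and 1 of 10 dendritic cell markers, and lower for 1 macrophage and 2 dendritic cell markers. T and NK cell, mast cell, erythroid and stromal markers each summed to at most 21.3 CPM in any library; Gzma, Mcpt4 and Tpsb2 were at 0 throughout, Ncr1 in KO_CTR and WT_CTR, and Dcn in KO_4OI. The part of these cells in the changes of the 10 genes was not tested.

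Genes whose levels followed those of a given gene most closely were found by the mean absolute difference of centred log2 CPM over the 9 libraries, among 9885 to 9886 genes with a mean of at least 5 CPM. Closest to Il1b were Oasl1 (0.207 log2 units), C1qb (0.225) and Aif1 (0.226), each with its highest mean in KO_CTR: C1qb averaged 43.3 CPM in KO_4OI, 111 CPM in KO_CTR and 51.9 CPM in WT_CTR. Closest to Ptges were Ftl1 (0.0925), Abcd4 (0.0993) and Mindy1 (0.102). Ftl1, the ferritin light chain, averaged 11000 CPM in KO_4OI, 4130 CPM in KO_CTR and 3990 CPM in WT_CTR. Ptgs2 had no gene as near, with Gbe1 (0.341), Dnajb4 (0.394) and Piwil2 (0.395) closest. Counting error adds to its distances, as Ptgs2 had only 2 to 27 reads per library in KO_CTR and WT_CTR.
For Nlrp3 they were Sorl1 (0.0616), Rab32 (0.0725) and Rnf130 (0.0914), and for Casp1 Rgs18 (0.0605), Gyg (0.0622) and Rassf2 (0.0746), all highest in KO_4OI and lowest in WT_CTR on average. Il18 was nearest to Ly86 (0.120), Tspan13 (0.134) and Ticam2 (0.141), and Il1rn to Got1 (0.0795), Dlat (0.0864) and Cblb (0.0911). Tnf was nearest to Arl2bp (0.0824), Coprs (0.0866) and Cers5 (0.0869), and Tgfb1 to Dgcr2 (0.0250), Slc38a10 (0.0342) and Atf6b (0.0355). These distances describe the 9 libraries, which share groups and depth.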

How the data were processed

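RNA was sequenced from 9 libraries of in vitro osteoclasts, 3 in each of KO_4OI, KO_CTR and WT_CTR, grouped and numbered by the sample titles. The authors deposited raw read counts per Ensembl gene, 1 column per library. Per the submitters' processing notes, which give no roles or order, the tools were fastp, HTSeq 0.6.1 and STAR and the build was mm10; the sources used here give no annotation release or strand setting. Symbols matched 54409 of 54532 IDs; the other 123 took 0.0245% to 0.0284% of reads. Coordinates and exon lengths are from GENCODE vM21 (GRCm38, the build mm10).

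The deposited counts were filtered with filterByExpr (minimum count 10), which left 14264 genes, scaled by TMM and fitted together with edgeR 4.0.16 (quasi-likelihood, R 4.3.3); group was the only factor. P-values were two-sided, Benjamini-Hochberg adjusted over all tested genes, with a threshold of 0.05. SE is the absolute log2 fold change over the square root of F, and 95% intervals are normal. CPM uses TMM-scaled totals. Libraries within a group differed beyond sampling noise (8.31 to 104 chi-square per gene), and none was treated as a duplicate. At these totals the level of a gene with as few reads as Il1a (0 to 5 per library) is limited by counting error. The pipeline was tested on simulated data.

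The genes, the 6 pathway lists, the marker lists and the tests were chosen with earlier results of these data known. Named genes are the 10, Acod1, up to 4 genes per pathway list with the smallest p in a comparison, and the 3 genes most like each tested gene. Ptgs1 and marker genes outside this rule were named after their values were seen, as was the neutrophil sum without Mmp8. Of 155 list symbols 153 matched and 130 were tested. The 19 alternatives were scaling by RLE or upper quartile, testing without the low-count filter or above a mean of 5 CPM, DESeq2 1.42.0, limma-trend (limma 3.58.1), fitting only the 2 groups compared, blocking on the replicate number, leaving out the libraries with Xist reads or giving them a covariate, and dropping each library in turn.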

Additional observations from a re-analysis of the deposited data

How the results depend on the processing

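Of the 9 tested genes, those past the threshold between KO_CTR and WT_CTR numbered 0 in the reported fit, 1 with upper-quartile scaling (1.01% of all genes tested), 2 without the low-count filter (3.40%), 2 by DESeq2 (4.41%), and 0 to 2 with 1 library left out (2 without WT_CTR replicate 3, where 1.69% of all genes passed). Between KO_4OI and KO_CTR they numbered 7, against 3 with a mean of at least 5 CPM (27.8%), a filter under which Il1b, Ptgs2 and Ptges are not tested and Tnf did not pass; with 1 library left out they numbered 5 to 7 (18.4% to 26.8%). Between KO_4OI and WT_CTR they numbered 6, against 4 with a mean of at least 5 CPM (25%; Ptgs2 and Ptges not tested), 7 without KO_CTR replicate 2 (29.9%) and 6 in the other alternatives. All directions of the 9 genes held in every alternative that tested them, apart from Tgfb1. Its log2 fold change for KO_4OI over KO_CTR ran from -0.19 to 0.20 with 1 library left out. For KO_4OI over WT_CTR it was 0.023 with RLE scaling and by DESeq2, 0.014 with upper-quartile scaling, 0.011 without the low-count filter, 0.0036 with a mean of at least 5 CPM and 0.017 with only the 2 groups compared, and -0.17 to 0.16 with 1 library left out. For KO_CTR over WT_CTR it was -0.014 by limma-trend and -0.056 without the libraries with Xist reads, and -0.18 to 0.19 with 1 library left out. With the length of the longest transcript, levels per length moved to 8.44, 14.5 and 16.1 for Il1rn and 114, 116 and 115 for Tgfb1 in KO_4OI, KO_CTR and WT_CTR; the cause of the other changes was not tested. In a paired fit, blocked on the replicate number, 5 of the 9 genes passed for KO_4OI over KO_CTR (21.9% of all genes; Casp1 had an adjusted p of 0.0558 and Tnf of 0.103), 6 for KO_4OI over WT_CTR (20.1%) and 0 for KO_CTR over WT_CTR (0.0421%), and the TNF list had 5 and 2 genes past the threshold in the first pair of comparisons in place of 8 and 5. Deviations from the group means correlated between same-numbered libraries at -0.408 to 0.317, so the numbers are not known to pair the libraries. Replicate 3 of KO_4OI had 8764 Xist reads and replicate 3 of KO_CTR had 0, so these libraries did not come from the same mouse. The log2 ratio of Il1rn to Il1a and Il1b kept its sign with Il1b alone as the denominator, with the block and with each library left out. Depth limits Il1a, Il1b and Ptgs2, which rest on 0 to 113 reads per library. It also limits the fold changes of Itgb8 and Bmp2. Itgb8 in KO_CTR (0.216 CPM on average) and Bmp2 in KO_4OI (0.174 CPM) lay below the Il1b mean of every group.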
